A study of Mus musculus with 1677 samples.

Results

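The 38 genes described here are transcripts that dividing cells need: 16 act in DNA replication and the step from G1 to S phase, and 22 act in G2 phase and mitosis. They were taken by symbol from a table of 24537 genes, and all 38 were found. The table holds 1035 RNA-sequencing libraries of 22 tissues from wild-type C57BL/6J mice, bought at 10 weeks of age and kept on chow for 2 weeks under a cycle of 12 h light and 12 h dark. All mice then ate a Western diet (45% fat, 17% sucrose) for 7 weeks, so that no group on chow enters any comparison. In ad-libitum feeding (ALF, 517 libraries) food was always present, and in time-restricted feeding (TRF, 518 libraries) it was given for 9 h, from ZT13 to ZT22, where ZT0 is lights on. Tissue was taken at 12 clock times 2 h apart. Of 528 groups of tissue, feeding and clock time, 507 held 2 libraries and 21 held 1. The labels do not state that the replicates came from separate animals, so the p-values measure the spread between these libraries.

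A dividing cell passes through a fixed order of phases. In G1, cyclin E with its kinase releases the E2F factors, which switch on the genes that load the MCM helicase on DNA and make nucleotides. In G2, transcription moves to the genes of cyclin B, the spindle and chromosome segregation, under factors that read CHR and CCAAT elements in their promoters. Most cells of adult tissue have left the cycle, while the crypts of the gut, the gastric glands, and the blood-forming and lymphoid cells of the spleen renew continuously. In bulk tissue, fewer dividing cells and less of these RNAs per cell cannot be told apart.

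The replication genes were the MCM helicase subunits Mcm2, Mcm3, Mcm4, Mcm5, Mcm6 and Mcm7, the loading factor Cdc6, the polymerase clamp Pcna and the nucleotide enzymes Rrm1, Rrm2 (ribonucleotide reductase), Tyms (thymidylate synthase) and Tk1 (thymidine kinase). With them stood the E cyclins Ccne1 and Ccne2, and Uhrf1 and Hells, which maintain DNA methylation and chromatin at replication. The mitotic genes were Mki67, whose product coats mitotic chromosomes, topoisomerase Top2a, the cyclins Ccna2, Ccnb1 and Ccnb2 with their kinase Cdk1, and the kinases Plk1, Aurka, Aurkb, Bub1, Bub1b and Ttk. They also held the chromosomal passenger subunits Birc5 and Cdca8, the kinetochore proteins Cenpe and Cenpf, the activator of the anaphase-promoting complex Cdc20, and the spindle proteins Tpx2, Kif11, Kif20a, Nusap1 and Prc1.

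The RefSeq promoter sequences (GRCm38.p6) of 32 members were searched, on both strands, over 250 bases before the transcription start. Ccna2, Mcm4, Ccne2, Kif20a, Tpx2 and Aurkb had no entry. The pattern for CHR was TTTGAA. A second form of CHR with the letters TTTAAA was also counted. A further pattern was CCAAT itself. The pattern for E2F was TTTNNCGC, with cytosine or guanine at each N. The E2F pattern stood in the windows of 6 of 14 replication genes (42.9%), 1 of 18 mitotic genes (5.56%) and 2.16% of all 27025 genes with a window. CHR stood in those of 4 of 14 replication genes (28.6%), 11 of 18 mitotic genes (61.1%) and 28.1% of all genes. CCAAT stood in 9 of 14 (64.3%), 16 of 18 (88.9%) and 37.5%. CHR and CCAAT were found together in 2 of 14 (14.3%), 10 of 18 (55.6%) and 10.1%. Matches of different patterns may share letters at their ends, and a match is a description of the window, not a bound site. Both sets are shown because the median peaks of the replication and the mitotic genes fell at different hours in the gut, as described further down.

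The 4 mitotic genes whose CHR lay nearest the start, with a CCAAT in the same window, are given as the last 100 bases before it, 5′ to 3′ in the direction of the gene, with CHR and CCAAT (or their reverse complements) in capitals. They are the kinase Cdk1 at chr10:69352913-69353012 on the minus strand, Cdc20 at chr4:118437344-118437443 on the minus strand, the spindle motor Kif11 at chr19:37376282-37376381 on the plus strand, and Top2a at chr11:99024190-99024289 on the minus strand. Cdk1 was also the mitotic gene whose window held the E2F pattern.
Cdk1: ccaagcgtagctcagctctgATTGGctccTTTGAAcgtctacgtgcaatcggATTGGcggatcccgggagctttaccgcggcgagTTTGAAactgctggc
Cdc20: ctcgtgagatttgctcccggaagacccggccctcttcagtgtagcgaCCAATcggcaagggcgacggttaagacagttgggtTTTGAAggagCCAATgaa
Kif11: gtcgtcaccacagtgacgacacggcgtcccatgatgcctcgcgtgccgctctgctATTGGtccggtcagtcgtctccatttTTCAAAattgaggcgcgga
Top2a: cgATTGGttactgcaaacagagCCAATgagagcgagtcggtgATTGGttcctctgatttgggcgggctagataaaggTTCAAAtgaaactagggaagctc

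The 4 replication genes whose E2F pattern lay nearest the start are given from 10 bases before the pattern to the start, with the pattern in capitals. They are Mcm6 at chr1:128359706-128359825 (minus strand, 120 bases), Hells at chr19:38930918-38930989 (plus strand, 72 bases), Cdc6 at chr11:98908003-98908150 (plus strand, 148 bases) and Mcm5 at chr8:75109346-75109508 (plus strand, 163 bases). Mcm6 and Mcm5 carried the pattern at more than 1 place, and in both the first run of capitals holds overlapping matches on the 2 strands.
Mcm6: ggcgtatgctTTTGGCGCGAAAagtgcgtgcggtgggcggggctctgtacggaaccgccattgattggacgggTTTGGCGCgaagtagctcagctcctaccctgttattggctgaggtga
Hells: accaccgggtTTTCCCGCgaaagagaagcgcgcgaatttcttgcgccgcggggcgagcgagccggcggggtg
Cdc6: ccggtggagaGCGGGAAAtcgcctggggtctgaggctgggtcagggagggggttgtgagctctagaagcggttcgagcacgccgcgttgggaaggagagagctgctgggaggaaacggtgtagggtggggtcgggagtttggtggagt
Mcm5: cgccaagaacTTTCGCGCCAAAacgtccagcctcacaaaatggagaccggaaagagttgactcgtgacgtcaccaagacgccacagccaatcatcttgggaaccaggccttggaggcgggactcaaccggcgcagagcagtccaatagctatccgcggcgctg

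Library totals ran from 2258507 to 500624930 counts with a median of 11255652, and 3 libraries held over 100000000. Of 66 tissue markers, 48 had their highest median in the labelled tissue and 62 were among the top 3 there. No marker of jejunum, DMH or iWAT was highest in its own tissue, the neighbouring gut segments, brain regions or fat depot being higher. By correlation, 15 libraries stood closest to another tissue than the labelled one, among them 5 iWAT ALF libraries (closest to eWAT), 1 duodenum TRF library (closest to ileum) and 1 ileum TRF library (closest to duodenum), both of ZT4 replicate 2. Without this pair the wave in TRF was called for 34 members in each of these segments, as with it. They were kept, and the counts without them are given where they differ.

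The summed level of the 38 genes, in CPM (the share of a library's counts scaled to a fixed total), had its highest medians in the small intestine and the spleen. The duodenum had a median of 2977 (range over libraries 1517 to 4093), the jejunum 2735 (1473 to 3881), the spleen 2386 (1315 to 6308) and the ileum 2141 (1101 to 3514). The stomach followed at 843 (496 to 1470), inguinal white fat (iWAT) at 532 (354 to 1148), the adrenal at 393 (324 to 494), the lung at 389 (333 to 475) and epididymal white fat (eWAT) at 279 (132 to 1085). The 13 other tissues had medians between 117 in the liver (75.7 to 286) and 227 in the dentate gyrus. Every pair of neighbours in this order overlapped in range, and stomach libraries overlapped those of iWAT and eWAT.

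The duodenum held the highest median for 20 members, the spleen for 13, the jejunum for 4 and the ileum for 1. The order depended in part on the scaling. With normalisation factors over all libraries the 22 tissue medians kept a rank correlation of 0.77 with those in CPM, and without the 50 most abundant genes one of 0.88; the duodenum was highest and the jejunum second with both. The lowest tissue was the liver in CPM, the DMH with those factors and the amygdala without the 50 genes.

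Replication and mitotic genes did not make up the same share of the sum in every tissue. Mitotic genes gave a median of 69.4% of it in the ileum, 67.5% in the jejunum, 65.6% in the duodenum, 58.7% in the stomach, 44.1% in the spleen, 15.02% in the liver and 14.1% in the hypothalamus. CPM per kilobase of a gene's merged exons allows genes to be compared. On this scale Mki67 stood at a median of 45.95 and Pcna at 43.1 in the duodenum. In the spleen Pcna stood at 65.6 and Rrm2 at 45.4. In the liver Pcna stood at 6.22 and Mki67 at 0.214, and in the hypothalamus at 10.2 and 0.0765. In these 2 tissues Pcna was thus measured well above Mki67 per kilobase. In CPM, Mki67 had a median of 462 in the duodenum (216 to 677), 200 in the spleen, 135 in the stomach, 14.9 in the lung, 2.15 in the liver and 0.770 in the hypothalamus.

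**Figure D1:**
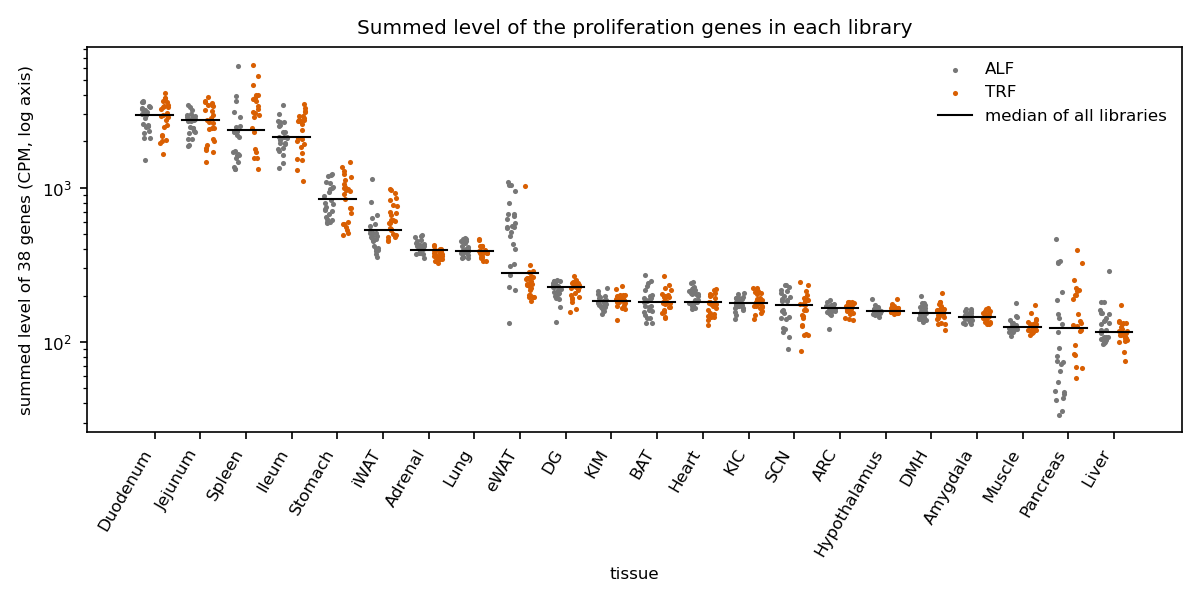
Summed level of the 38 proliferation genes (CPM, log axis) in each library of the 22 tissues, ordered by the median, with ALF and TRF libraries in different colours. The duodenum, jejunum, spleen and ileum have medians of 2141 to 2977, and the liver has the lowest at 117.

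Feeding was compared first over the whole day, with clock time in the model. A call is an adjusted p under 0.05 by edgeR's quasi-likelihood test over all genes tested in the tissue, and log2 fold changes are TRF minus ALF. Over the 22 tissues the members gave 653 tests and 133 calls, while 19.7% of the tests of all genes were called. Calls reached 5 or more members in 8 tissues, and 10 tissues had none: ARC, amygdala, brown fat, dentate gyrus, DMH, kidney cortex, kidney medulla, lung, pancreas and SCN. Those 10 had between 0 and 4 members at an unadjusted p under 0.05, and from 0% (SCN) to 11.1% (kidney cortex) of all genes called. DESeq2's Wald test gave 140 calls over the 22 tissues in place of 133.

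The largest response was in eWAT, the abdominal fat depot beside the epididymis. There 37 of 38 members were lower in TRF and none was higher. Of all genes tested in eWAT, 59.2% changed in either direction and 29% were lower. The median log2 fold change of the members was -1.44, against 0.01 over all genes. Replication genes fell in 15 of 16 cases (median -0.90) and mitotic genes in 22 of 22 (median -1.61). The exception was the helicase subunit Mcm7, with medians of 26.5 CPM in ALF and 26.2 in TRF.

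Bub1, a kinase of the spindle checkpoint, fell furthest. It ranged from 0.642 to 9.56 CPM in the 24 ALF libraries (median 3.85) and from 0.313 to 10.3 in the 24 TRF libraries (median 0.670), a log2 fold change of -2.22 ± 0.34 (SE, adjusted p = 2.9e-06). Tk1, which salvages thymidine for DNA synthesis, ranged from 1.84 to 27.8 (median 10.9) in ALF and from 0.777 to 30.5 (median 2.10) in TRF, a change of -2.13 ± 0.35 (adjusted p = 6.2e-06). The groups overlapped for both genes, and the top of the TRF range came from a single library.

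Mki67 ranged from 8.09 to 111 CPM in ALF (median 43.8) and from 6.13 to 82.0 in TRF (median 10.8), a change of -1.85 ± 0.27 (adjusted p = 1.8e-06). Top2a, which untangles replicated chromosomes, went from a median of 28.9 (5.13 to 66.0) to 6.61 (3.07 to 55.4), a change of -1.87 ± 0.27 (adjusted p = 1.7e-06). Ccnb1, the cyclin that starts mitosis, changed by -1.77 ± 0.32 (adjusted p = 2.4e-05). These mitotic genes moved by similar amounts.

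Apart from Tk1, the replication genes given here had smaller estimates. Mcm5 ranged from 6.58 to 46.2 CPM in ALF (median 23.1) and from 4.88 to 42.9 in TRF (median 8.80), a change of -1.30 ± 0.21. Pcna ranged from 28.7 to 111 (median 57.9) in ALF and from 29.1 to 101 (median 34.2) in TRF, a change of -0.73 ± 0.14 (adjusted p = 4.7e-05). Rrm2 changed by -1.36 ± 0.23 and Mcm2 by -0.86 ± 0.16. The difference between the replication and mitotic genes was not tested.

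For 35 of the 37 members that fell, at least 23 of the 24 TRF libraries lay below the ALF median, yet for none were the groups apart. Summed over the 38 genes on the normalised CPM scale, ALF libraries ran from 225 to 1057 (median 553) and TRF libraries from 186 to 1005 (median 244). The value of 1005 belonged to TRF ZT10 replicate 1, and the next highest TRF library stood at 324. Without that library 37 members were lower. With only 1 replicate of each group, 33 or 37 were.

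The other cell-cycle genes of eWAT moved with the members. Of 57 further mitotic genes 55 fell and 1 rose (median -1.29), and of 45 further replication genes 39 fell (median -0.53). Among 29 genes of cell-cycle entry 19 fell and 2 rose (median -0.36). E2f8, an E2F family repressor of S phase, changed by -1.86, Foxm1, the activator of mitotic genes, by -1.25, and the kinetochore gene Spc25 by -2.20. Of 13 CDK inhibitors and p53 targets, 7 fell and 2 rose. Cdkn1a, which encodes the inhibitor p21, went from a median of 175 CPM to 60.2 (log2 fold change -1.24), and Cdkn1c, which encodes p57, changed by 0.76.

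Markers of other cells moved in the same libraries. Of 16 macrophage markers 15 fell (median -1.36), and their summed level ran from 10305 to 24092 in ALF (median 18552) and from 11563 to 22182 in TRF (median 15701). Mmp12, a macrophage elastase, went from 377 CPM to 30.1 (-3.60). Gpnmb, a marker of lipid-laden macrophages, changed by -3.17, and the chemokine Ccl2 by -2.99. Of 10 adipocyte markers 9 rose and 1, the hormone gene Lep, fell. The part of these cells in the members' change was not tested.

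In the spleen the direction was the opposite. There 26 of 38 members were higher in TRF and none was lower, with 10.3% of all genes called in either direction and 5.79% higher. The median over the members was 0.52. Calls were made for 13 of 16 replication genes and 13 of 22 mitotic genes.

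Cdc6, which loads the helicase at origins, ranged from 7.497 to 106 CPM in the 23 ALF libraries (median 16.1) and from 7.53 to 120 in the 21 TRF libraries (median 37.6), a change of 0.92 ± 0.23 (adjusted p = 0.013). Ccne1, the cyclin of the G1 to S step, ranged from 9.88 to 99.6 (median 16.6) and from 9.84 to 125 (median 37.1), a change of 0.80 ± 0.22 (adjusted p = 0.0177). The ranges of the feeding groups covered each other for both, and the medians differed.

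Rrm2 went from a median of 93.6 CPM (41.6 to 331) to 143 (31.1 to 603), a change of 0.68 ± 0.21 (adjusted p = 0.0354). Mcm2 went from 83.9 (53.7 to 257) to 118 (69.0 to 246), a change of 0.51 ± 0.12 (adjusted p = 0.00693), and Mcm5 changed by 0.48 ± 0.11 (adjusted p = 0.00802). Ccnb1 rose by 0.63 ± 0.20 (adjusted p = 0.042). Of the members given throughout, 3 did not pass: Mki67, at medians of 155 (72.0 to 744) and 253 (72.9 to 681), with an adjusted p of 0.0581, Top2a with 0.0558 and Pcna with 0.302.

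The calls in the spleen depended on replicate 2. Without it, none of 13493 genes was called in the spleen by edgeR's test. Then 11 members were at an unadjusted p under 0.05 (11.3% of all genes were). The estimates of 37 members were above 0 and that of 1 below, with a median of 0.37. Without replicate 1, 31 members were higher. The summed level had medians of 2177 and 2056 in ALF replicates 1 and 2, and of 2662 (12 libraries) and 3565 (9 libraries) in TRF. Without the highest ALF library (ZT12, 6262 on the normalised scale) 32 members were higher, and without the highest TRF library (ZT14, 7526) 21 were.

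Among other cell-cycle genes of the spleen, 20 of 58 mitotic genes (median 0.44) and 20 of 47 replication genes (median 0.32) rose and none fell, and the rest did not pass. E2f8 rose by 0.86, Mybl2, a partner of the mitotic activator complex, by 0.78, and the histone chaperone subunit Chaf1b by 0.67.

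Blood-cell markers moved in these libraries. All 10 markers of neutrophils and their precursors rose (median 2.70), with summed levels of 111 to 3172 in ALF (median 297) and 306 to 7043 in TRF (median 1331). Of 16 erythroid markers 10 rose (median 1.14), with sums of 11809 to 79422 in ALF (median 34068) and 8456 to 130526 in TRF (median 35028), so that the median of the sum was nearly the same. Of 8 B cell markers 3 fell, and of 8 T cell markers 1 fell. Of 9 markers of gastric glands 3 rose (median 1.25), with sums of 54.8 to 468 in ALF (median 215) and of 80.8 to 3196 in TRF (median 382). The part of these cells in the members' change was not tested.

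The feeding effects of the 2 tissues were tested against each other in a single model. These tissues were chosen for having the most members higher and the most lower in TRF, so the choice itself favoured a difference. The model took the libraries of both tissues as separate, and the labels do not state whether they came from the same animals. All 38 members had a higher log2 fold change in the spleen than in eWAT past the threshold, where 35.1% of 15326 genes differed in either direction. The difference had a median of 1.99 over the members (range 0.57 to 2.72) and -0.02 over all genes.

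**Figure D2:**
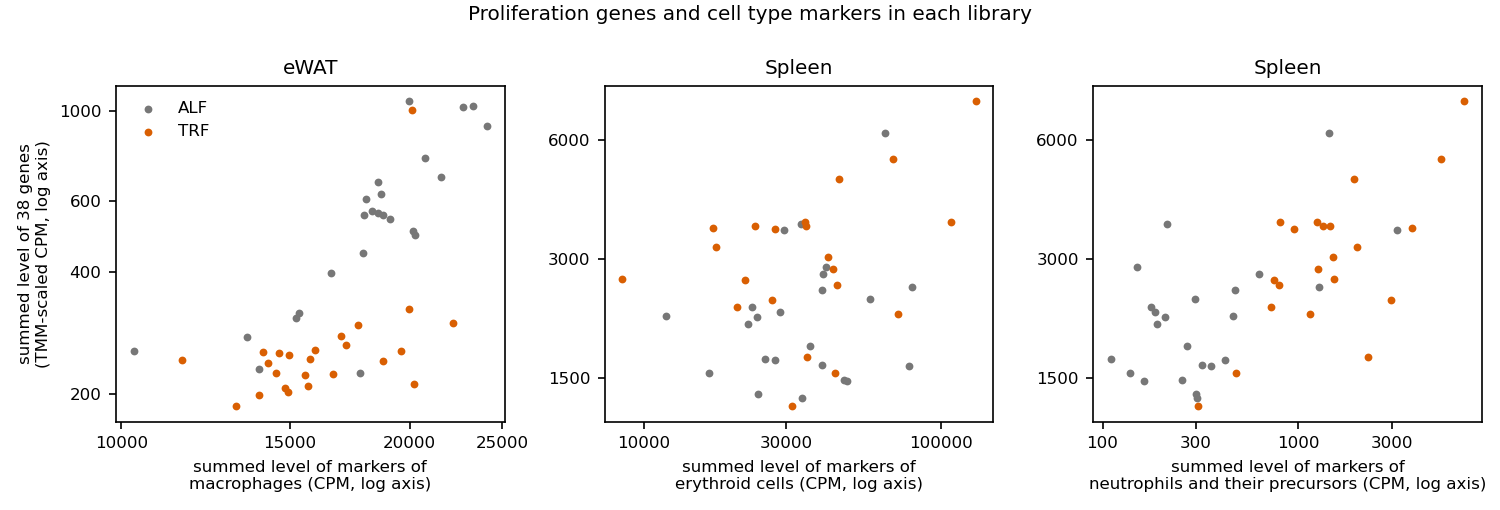
Summed level of the 38 genes in each library on the normalised CPM scale, against the summed level of cell type markers, both on log axes. The markers are those of macrophages in eWAT, and of erythroid cells and of neutrophils and their precursors in the spleen. ALF and TRF are in different colours. TRF libraries of eWAT lie at a median of 244 against 553 in ALF, apart from 1 library of 1005 at ZT10, and spleen TRF libraries lie at 3043 against 2142.

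In iWAT, the fat depot under the skin of the groin, 14 members were higher and 3 lower, in a tissue where 66.2% of all genes changed, 35.1% higher and 31.2% lower. The share of members called was thus below that of all genes. Replication genes made up 11 of the 14 rises. Hells, a chromatin remodeller, went from a median of 4.50 CPM (2.48 to 17.3) to 6.95 (4.14 to 15.01), a change of 0.51 ± 0.18 (adjusted p = 0.0114). Mcm4 went from 27.8 (18.5 to 57.2) to 37.5 (27.1 to 56.5), a change of 0.47 ± 0.09 (adjusted p = 4.3e-05). Ccne1 fell from 8.16 (4.05 to 9.95) to 5.26 (3.72 to 8.92), a change of -0.52 ± 0.10 (adjusted p = 2.1e-05), and Prc1, which bundles the central spindle, changed by -0.30 ± 0.12 (adjusted p = 0.0231).

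Mcm2, Mcm5, Rrm2, Ccnb1, Top2a and Pcna also rose in iWAT, by 0.41, 0.41, 0.35, 0.34, 0.31 and 0.15, whereas Mki67 did not pass (0.15, adjusted p = 0.298). All feeding groups overlapped. Without replicate 1 no member was higher by edgeR's test, with 2 members at an unadjusted p under 0.05, and without the libraries closest to another tissue or over 100000000 counts 8 were. All 8 B cell markers (median 1.32), all 8 T cell markers (1.39) and 7 of 8 muscle fibre markers (2.75) rose, and 8 of 10 adipocyte markers and 7 of 8 endothelial markers fell. B cell markers summed to 6.97 to 2289 in ALF (median 376) and 438 to 1747 in TRF (median 952). The part of lymphoid and muscle tissue in the members' change was not tested.

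In the adrenal, 14 of 37 members tested were lower and 1 was higher, with 31.9% of all genes called, 15.3% lower and 16.6% higher. Ccnb2, a B cyclin, went from a median of 1.95 CPM (1.23 to 3.51) to 1.45 (0.544 to 2.24), a change of -0.60 ± 0.15 (adjusted p = 0.00172). Tk1 changed by -0.60 ± 0.18 (adjusted p = 0.0114), Mki67 by -0.34 ± 0.11 (adjusted p = 0.0156), Top2a by -0.32 and Mcm5 by -0.26. Mcm2 changed by -0.17, and its adjusted p was 0.18 with an offset for GC content. Ccne1 rose by 0.32 ± 0.12 (adjusted p = 0.0383). Without replicate 1 no member was lower by edgeR's test, and without replicate 2 there were 3. The members' median was -0.25 and -0.20 then, against -0.22 with all libraries, with 15 and 9 of 37 members at an unadjusted p under 0.05. Of 16 macrophage markers 7 fell and 1 rose, and 6 of 8 endothelial markers fell; their part was not tested.

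The mean level changed little in the gut. In the duodenum 3 members rose and 7 fell (40.8% of all genes called, 19.9% higher and 20.9% lower). In the jejunum 6 rose and 5 fell (45.1%, 22.7% and 22.3%), in the stomach 5 rose and none fell (24.8%, 14.4% and 10.4%), and in the ileum Tk1 alone fell, by 0.31 (9.05% in either direction). With GC offsets there were 0 rises and 3 falls in the duodenum, 2 rises and 0 falls in the jejunum, and 3 rises in the stomach; not all of these were among the calls without the offsets.

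Tk1 in the duodenum was the member of the gut with the largest change. Its median went from 43.4 CPM (28.4 to 63.3) to 31.0 (14.5 to 42.2), a change of -0.57 ± 0.07 (adjusted p = 9.4e-07, 9.1e-06 with GC offsets). None of the 24 TRF libraries reached the ALF median, although the ranges overlapped. Mki67 rose there by 0.24 ± 0.06 (adjusted p = 0.00297), which did not pass with GC offsets (0.0937), as also held for the fall of Plk1 by 0.34 (0.222) and for the kinetochore motor Cenpe (0.19, 0.661). Mcm5 went from a median of 50.4 CPM (33.4 to 60.4) to 56.7 (36.1 to 95.4) in the jejunum, a rise of 0.21 ± 0.06 (adjusted p = 0.00789), and from 18.1 (11.2 to 25.6) to 21.5 (9.96 to 50.8) in the stomach, a rise of 0.35 ± 0.10 (adjusted p = 0.00902). In the duodenum it changed by -0.21.

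Plk1, a kinase of mitotic entry, rose in the jejunum by 0.26 and in the stomach by 0.34 (adjusted p = 0.0465), and neither passed with GC offsets (0.386 and 0.249). The E cyclin Ccne2 fell by 0.34 ± 0.08 in the jejunum (adjusted p = 6.7e-04, 0.0754 with GC offsets), and Nusap1, a spindle protein, changed by -0.24. Adipocyte markers rose for 9 of 10 genes in the jejunum and villus enterocyte markers fell for 5 of 10. Skeletal muscle markers rose for 6 of 6 in the stomach. Their part in these changes was not tested.

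In the heart 2 of 35 members rose and 3 fell, with 30.6% of all genes called, 15.2% higher and 15.5% lower. Cenpf went from a median of 55.6 CPM (29.2 to 85.0) to 27.3 (14.4 to 52.8), a change of -1.02 ± 0.09 (adjusted p = 8.2e-11), while Mki67 (0.27) and Top2a (0.16) did not pass. Plk1 rose by 0.60 and Nusap1 by 0.41. With GC offsets Cenpf alone remained lower. In the liver Rrm2 fell from 8.003 to 5.33 (-0.59 ± 0.13, adjusted p = 0.00131) and Pcna from 16.6 to 13.8 (-0.27 ± 0.06, adjusted p = 0.00115), with 20.7% of all genes called. In muscle Rrm1 fell by 0.10 and the spindle assembly factor Tpx2 by 0.32 (29.5% of all genes called). In the hypothalamus Mcm2 fell by 0.17 and Mcm4 rose by 0.09 (32.4%).

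**Figure D3:**
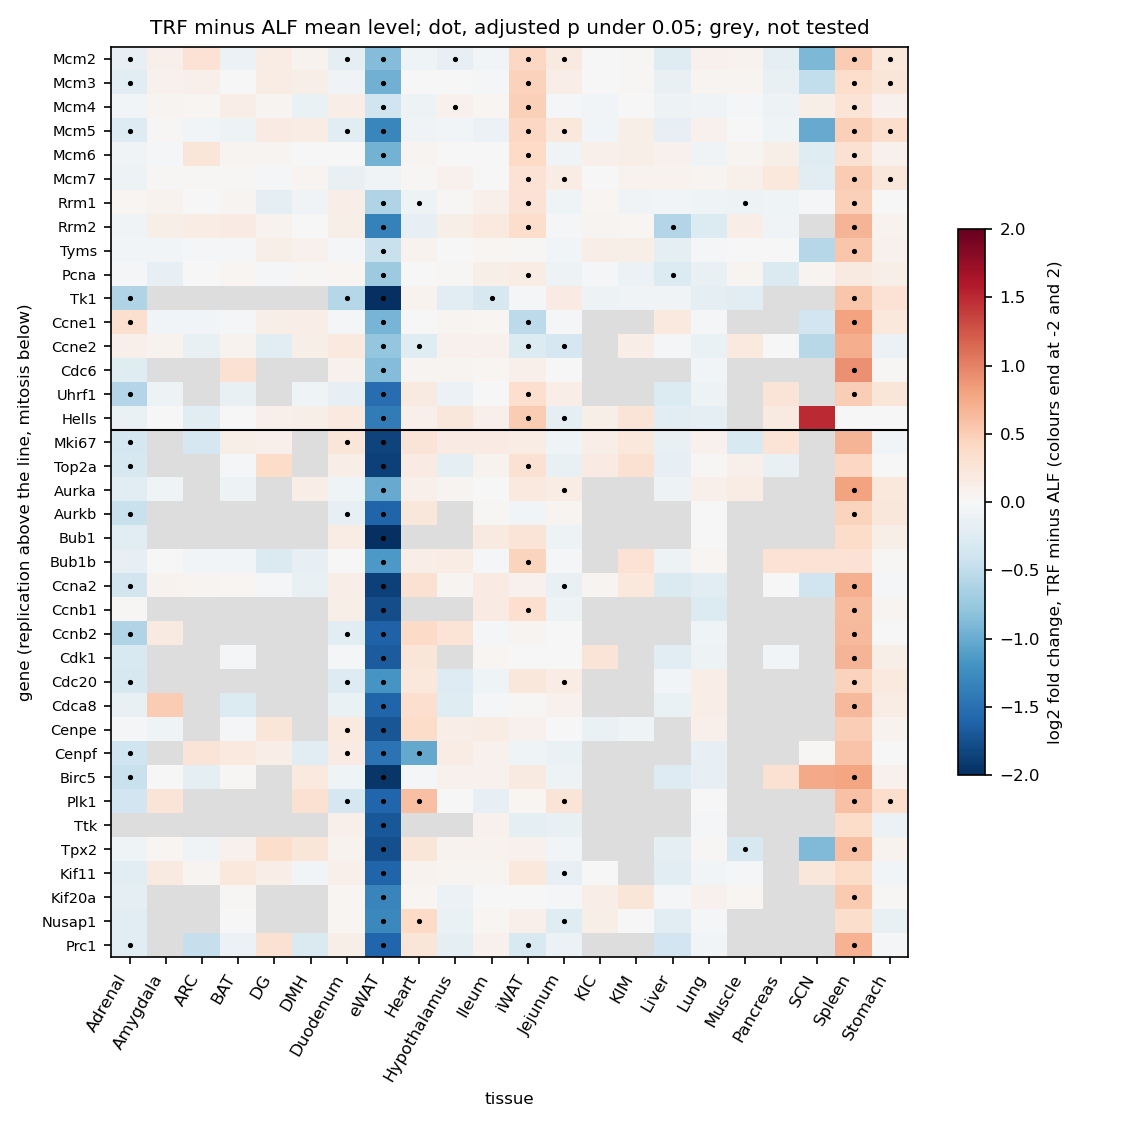
Log2 fold change TRF minus ALF (colour scale) of each of the 38 genes (rows, by role) in each of the 22 tissues (columns). A dot marks an adjusted p under 0.05, and grey marks a gene that was not tested. The eWAT column holds 37 falls and the spleen column 26 rises, and 10 tissues hold no call.

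The day was next divided into ZT14 to ZT22, when TRF mice had food, and ZT0 to ZT12. In eWAT 36 members were lower from ZT0 to ZT12 (40.2% of all genes called, 20.8% lower; member median -1.11) and all 38 from ZT14 to ZT22 (48.7%, 25% lower; median -1.87). Cdk1, the kinase that drives mitosis, changed by -2.28 ± 0.35 in the later window (adjusted p = 1.6e-05). The earlier count was 0 without replicate 1. For no member of eWAT did the effects of the windows differ past the threshold by edgeR's test (2.21% of all genes did), with 7 at an unadjusted p under 0.05.

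In the spleen 31 members were higher from ZT14 to ZT22 (9.96% of all genes called, 7.06% higher; median 0.81), and none from ZT0 to ZT12 (0.00726% of all genes called; 0 members at an unadjusted p under 0.05). Summed levels from ZT14 to ZT22 ran from 1472 to 3669 in ALF (median 2177) and from 2269 to 7526 in TRF (median 3608), so that the lower end of the TRF range lay above the ALF median. Cdc6 changed by 1.51 ± 0.32 (adjusted p = 0.00254) and Aurka, a centrosome kinase, by 1.21 ± 0.26. The test of the difference between the windows called no gene (0%); 22 members were at an unadjusted p under 0.05, against 8.96% of all genes. Without replicate 2 the later window gave no call, with 10 members at an unadjusted p under 0.05.

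In the stomach 8 members were higher from ZT14 to ZT22 (28.3% of all genes called, 16.1% higher) and none changed from ZT0 to ZT12 (1.55%; 0 members at an unadjusted p under 0.05). Mcm5 rose by 0.68 ± 0.13 in the later window (adjusted p = 9.8e-04), and Uhrf1 by 0.59. In the duodenum 2 rose and 12 fell from ZT0 to ZT12 (37.1%), and 5 rose and 1 fell from ZT14 to ZT22 (14.4%). In the jejunum 2 rose and 4 fell (32.4%), then 8 rose and 2 fell (31.7%).

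The effect differed between the windows for 5 members over all tissues, each a replication gene of the upper gut. For each, the log2 fold change from ZT14 to ZT22 lay above that from ZT0 to ZT12. Such a difference does not by itself mean a higher level in TRF. In the duodenum the members were Mcm2 and Rrm2 (0.949% of all genes), and in the jejunum Mcm2, Ccne1 and Ccne2 (6.21%). Mcm2 in the jejunum rose by 0.48 in the later window.

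The daily course of the members was clearest in the gut. A 24 h wave was fitted in each feeding group, with an amplitude from mean to peak in log2 units. In ALF 98 of the 653 tests were called (11.7% for all genes) and in TRF 210 (27.4%). In TRF the wave was called for all 38 members in the stomach (21.4% of all genes), 37 in the jejunum (55.8%), 34 in the duodenum (38.8%) and 34 in the ileum (45.5%). In ALF it was called for 24 (2.9%), 11 (14.2%), 14 (15%) and 3 (3.65%). The calls in TRF included 33 members in all 4 segments, and Bub1b, Cdc20, Mcm6, Mcm7 and Tk1 were missing in at least 1. The stomach is the segment in which the members' share stood furthest above that of all genes in both feeding groups.

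Among the 4 segments the stomach had the highest median amplitude. In TRF its median amplitude was 0.70 over the 38 members (range 0.28 to 0.92), against 0.17 over all genes, with 0.76 for mitotic and 0.47 for replication genes. Nusap1 averaged 29.3 CPM at ZT4 and 7.75 at ZT16, an amplitude of 0.86 ± 0.09 with its peak at ZT1.43 (adjusted p = 1.8e-08). Ccna2, the cyclin of S phase and G2, averaged 58.0 at ZT0 and 16.4 at ZT10, and Mki67 218 at ZT0 and 61.8 at ZT10. Of the replication genes Mcm5 averaged 43.6 at ZT18 and 12.6 at ZT8, with an amplitude of 0.69 and its peak at ZT20.02. Pcna had the smallest wave, with an amplitude of 0.28.

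In the jejunum in TRF, Rrm2 averaged 68.7 CPM at ZT20 and 25.8 at ZT8, an amplitude of 0.66 ± 0.06 with its peak at ZT20.1. The passenger subunit Cdca8 averaged 52.4 at ZT20 and 23.4 at ZT10, an amplitude of 0.50 ± 0.04 (adjusted p = 2.4e-12). Ccne1 averaged 14.02 at ZT18 and 5.93 at ZT8, and Cenpf 111 at ZT0 and 35.9 at ZT14. The wave of Tk1, at 0.06, was not called.

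In the duodenum in TRF, Rrm2 averaged 113 CPM at ZT16 and 43.9 at ZT6, an amplitude of 0.61 with its peak at ZT18.9, and Hells 83.1 at ZT16 and 29.6 at ZT6. In the ileum Bub1 averaged 50.7 at ZT22 and 20.03 at ZT10, an amplitude of 0.66 with its peak at ZT21.4. Each of these genes was highest in the hours when TRF mice had food and lowest in the light phase.

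**Figure D4:**
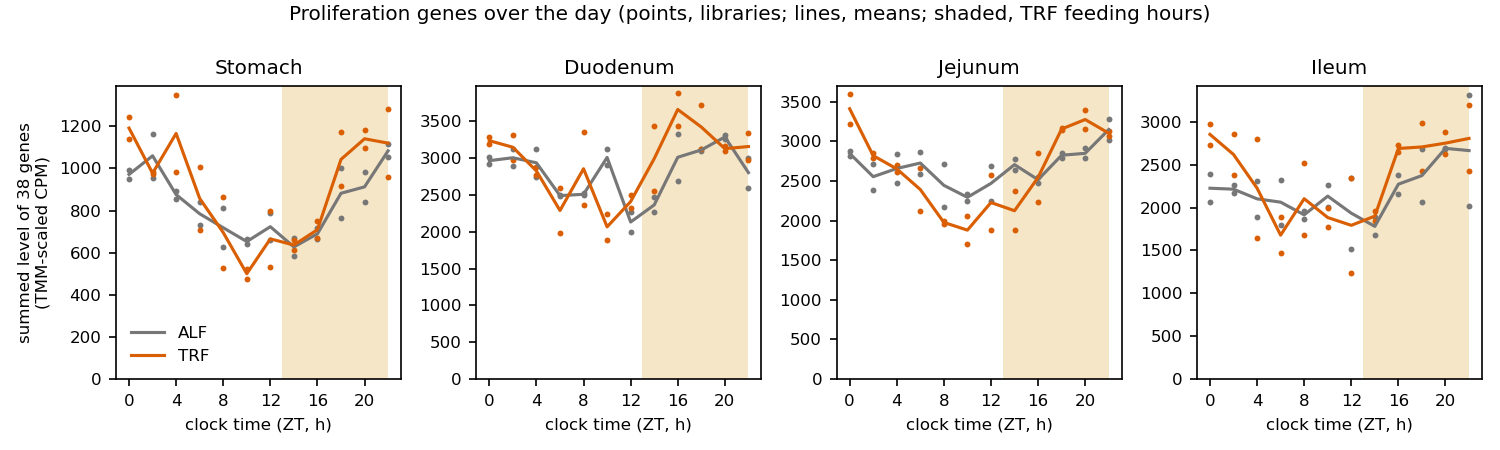
Mean summed level of the 38 genes (normalised CPM, from 0) by clock time in stomach, duodenum, jejunum and ileum, with a point per library and a line through the means for ALF and TRF. In the stomach TRF means run from 500 at ZT10 to 1192 at ZT0, and ALF means from 627 at ZT14 to 1084 at ZT22.

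The median peak of the called replication genes in TRF came before that of the mitotic genes in each segment. Single genes overlapped in the jejunum, with replication peaks up to ZT21.8 and mitotic peaks from ZT21.3. In TRF the median peak of the called replication genes fell at ZT19.98 in the stomach (16 genes), ZT18.2 in the duodenum (14), ZT19.5 in the jejunum (15) and ZT19.0 in the ileum (13). That of the called mitotic genes fell at ZT0.411 (22), ZT21.6 (20), ZT23.0 (22) and ZT22.0 (21). The mitotic median was thus 4.43 h later in the stomach, 3.45 h in the duodenum, 3.49 h in the jejunum and 2.93 h in the ileum. In ALF the stomach gave 5.26 h, from 5 replication and 19 mitotic genes, and the other segments had at most 1 replication gene called.

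Single genes can be followed across segments. Ccne1, which acts before S phase, peaked at ZT17.98 in the stomach, ZT16.5 in the duodenum, ZT17.3 in the jejunum and ZT16.9 in the ileum. Ccnb2 and Cenpf, which act late in G2 and mitosis, peaked at ZT3.08 and ZT2.17 in the stomach and at ZT1.89 and ZT1.64 in the jejunum. The standard errors of single peaks were mostly under 1 h, and no test of the order was made.

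**Figure D5:**
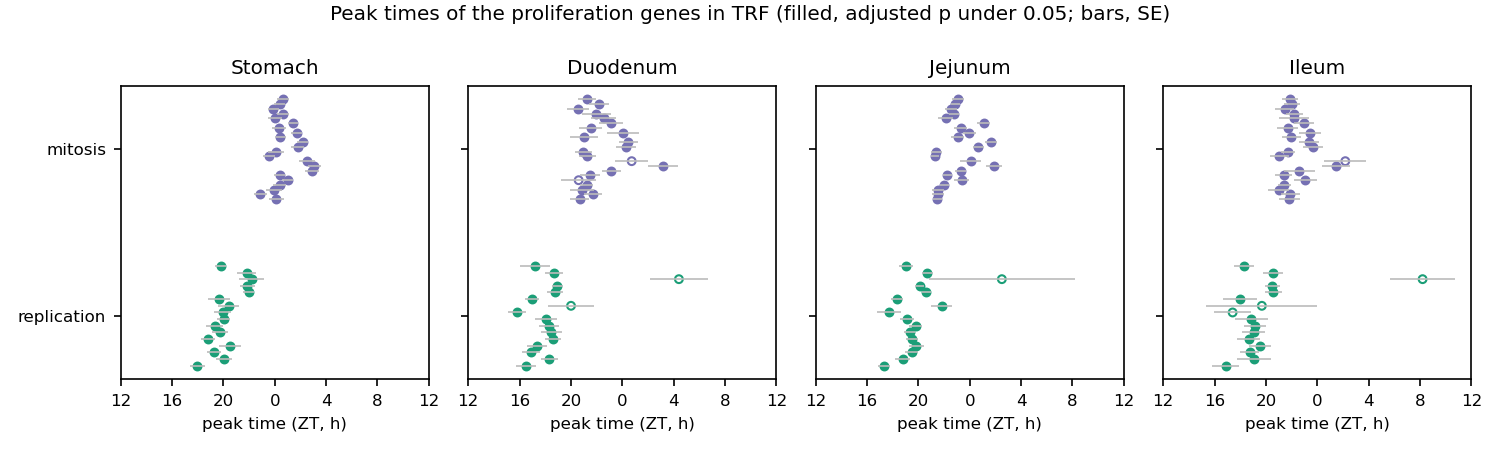
Peak time of the wave fitted over 24 h in TRF (ZT in h, with the day drawn from ZT12 onward) of each member in the 4 gut segments. Points are filled where the wave was called and open where not, with replication and mitotic genes in different colours and bars for 1 SE. In each segment the median of the called replication genes lies earlier, at ZT18.2 to ZT19.98 in TRF against ZT21.6 to ZT0.411. In the jejunum the peaks of the replication and mitotic genes overlap.

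Whether the wave differed between feeding groups was tested directly. In the jejunum it differed for 21 of 38 members (6.33% of all genes), 9 replication and 12 mitotic, and the amplitude was larger in TRF for all 38. The median amplitude over the 38 was 0.17 in ALF and 0.47 in TRF. Rrm2 rose from an amplitude of 0.18 to 0.66 (adjusted p of the difference 8.4e-04), followed by Tyms (0.00199) and Rrm1 (0.00290). The count was 5 without replicate 1 (118 of 14688 genes) and 0 without replicate 2 (10 of 15110 genes). Without replicate 2, 14 members were at an unadjusted p under 0.05, against 8.34% of all genes.

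In the other segments the difference was called for no member by edgeR's test: 9 members in the stomach, 9 in the duodenum and 1 in the ileum were at an unadjusted p under 0.05, and 0.371%, 0.00668% and 0.048% of all genes were called. The amplitude was larger in TRF for 37, 35 and 35 of the 38 members there. The larger number of calls in TRF is therefore not shown to be a difference between feeding groups outside the jejunum. Without replicate 1, the wave in TRF was called for 9 members in the duodenum (2037 of 14798 genes) and 2 in the ileum (560 of 14403 genes). Then 23 and 25 members were at an unadjusted p under 0.05, against 33.2% and 25.1% of all genes. Without replicate 2, the wave in TRF was called for 22 members in the stomach. In ALF, leaving out 1 replicate left 13 or 0 calls in the stomach, 0 or 1 in the duodenum and 0 or 2 in the jejunum. In the stomach 78 of 14293 or 21 of 14854 genes were then called, with 33 and 24 members at an unadjusted p under 0.05.

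Further cell-cycle genes also had called waves in the gut. In TRF 56 of 58 further mitotic genes were called in the stomach, 58 in the jejunum, 46 in the duodenum and 52 in the ileum, with median peaks at ZT0.855, ZT23.1, ZT21.9 and ZT22.2. Further replication genes were called for 34, 41, 28 and 29 of 47, with median peaks at ZT20.8, ZT20.6, ZT19.2 and ZT20.2. Markers of crypt base stem cells were called for 4, 3, 3 and 3 of 9 genes, and those of villus enterocytes for 4, 7, 5 and 5 of 10, the latter with median peaks at ZT11.2, ZT10.3, ZT11.2 and ZT8.74. In ALF 0, 4, 8 and 2 of the 10 enterocyte markers were called in the same order of segments. The 8 of the duodenum had a median peak at ZT11.7 and a median amplitude of 0.58, against ZT22.7 for the called mitotic members there. The part of these cells in the members' waves was not tested. The core clock genes Arntl, Per2, Nr1d1 and Dbp were called in both feeding groups in all 4 segments.

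Outside the gut, the lung had a wave for 17 members in ALF (42.6% of all genes) and 7 in TRF (37.7%). Mki67 averaged 27.7 CPM at ZT18 and 9.20 at ZT2 in ALF, an amplitude of 0.74 ± 0.10 with its peak at ZT19.4 (adjusted p = 2.5e-06), and Top2a peaked at ZT19.9. The share of members called was close to that of all genes in ALF and below it in TRF, and the count in ALF was 5 without either replicate. The difference between feeding groups was called for no member of the lung by edgeR's test (0.0398% of all genes), with 11 at an unadjusted p under 0.05. In eWAT the wave differed between feeding groups for 9 members (11.3% of all genes), with Nusap1 at an adjusted p of 0.00174, and the median amplitude was 0.57 in ALF and 0.30 in TRF. Without the TRF ZT10 library that stood apart, 1 member differed, and 2 or 0 did without replicate 1 or 2. No member of eWAT had a called wave in ALF (9.37% of all genes, with 16 members at an unadjusted p under 0.05), although 34 had one without replicate 1. In TRF 5 of 38 members of eWAT had a called wave, with peaks from ZT4.88 to ZT9.32 and a median at ZT7.02. That fit held the TRF ZT10 library with a summed level of 1005, where the other ZT10 library stood at 296. The count of called waves without it is not given here. There 13 members were at an unadjusted p under 0.05, against 42.2% of all genes. In the spleen no member had a called wave in either group (0.414% of all genes in ALF and 2.99% in TRF; 14 members in ALF and 28 in TRF were at an unadjusted p under 0.05).

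In the heart in TRF, 13 of 35 members had a wave (51.2% of all genes), among them the 6 MCM subunits, with peaks between ZT7.72 for Mcm3 and ZT10.9 for Mcm5. Mcm7 had the largest of these, with an amplitude of 0.55 ± 0.06. In ALF 4 members had a wave (33.4%), so the share of members called was below that of all genes in both feeding groups. The wave differed between feeding groups for Mcm2, Mcm4, Mcm7 and Ccnb2 (5.18% of all genes), each with the larger amplitude in TRF.

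The liver, whose summed level in CPM was the lowest, had a wave for 7 of 29 members in each feeding group (25.7% of all genes in ALF and 49% in TRF). Tk1, Rrm2, Ccne1 and Ccne2 were called in both. Tk1 averaged 31.2 CPM at ZT12 and 8.56 at ZT6 in ALF, an amplitude of 0.79 ± 0.13 with its peak at ZT15.1, and 31.4 at ZT12 and 6.83 at ZT4 in TRF, an amplitude of 0.91 with its peak at ZT14.5. Rrm2 averaged 22.96 at ZT14 and 4.70 at ZT0 in ALF, and 12.04 at ZT16 and 3.08 at ZT0 in TRF. Ccne2 had an amplitude of 0.83 in ALF and 1.01 in TRF, and Ccne1 of 0.94 and 0.64. The members called in both groups were all replication genes. Of the mitotic genes, Cdk1 and Birc5 were called in ALF alone and Cdc20 in TRF alone, while Mki67 and Top2a were called in neither. The share of members called was close to that of all genes in ALF and below it in TRF.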

How the data were processed

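Poly(A) RNA of 22 tissues was sequenced from stranded libraries, per the labels' protocols. The authors deposited estimated counts per gene, of which 29.62% of values are not whole numbers. CASAVA 1.8, FastQC 0.11.8, STAR 2.5.3a and HOMER 4.10 with GRCm38/mm10 are named, without roles, per the submitters' processing notes. Runs of a library were summed, counts were rounded for the tests, and 4 rows with duplicated names were left out. Groups came from the labels; those of liver and ileum run from ZT24 to ZT46 and were read as the same hours of a single day.

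Each tissue was tested on its own in R 4.3.3 with edgeR 4.0.16 (filterByExpr, TMM, quasi-likelihood test, Benjamini-Hochberg adjustment over all genes tested, threshold 0.05), with clock time as a factor for feeding effects and with a 24 h cosine and sine in each feeding group for the daily course. For amplitudes, peak times and their errors, limma 3.58.1 was run on log2 CPM. Per library values within a tissue are TMM-scaled CPM, and levels across tissues are CPM. A member counts as tested where it passed filterByExpr: all 38 did in 8 tissues, and 18 did in muscle and SCN, the fewest. The members and the other lists were chosen with earlier results of these data known, so their counts are set beside those of all genes and no list test was made. In tissues with 5 or more called members, the pair with the largest rise and the pair with the largest fall are named, beside 7 members given throughout (Mki67, Top2a, Ccnb1, Mcm2, Mcm5, Pcna, Rrm2) and those with the smallest p in each window or wave; other genes were picked after their values were seen. Tests on simulated counts checked the scripts.

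Same-numbered replicates of different groups did not deviate together: of 245 comparisons, 83 had a correlation above 0.1 and 62 one below -0.1 (range -0.779 to 0.799), so the numbers were not used as pairs. Alternatives were DESeq2 1.42.0 size factors and its Wald test, no filter, GC offsets, a 12 h harmonic, a replicate block, leaving out each replicate, and leaving out libraries that stood apart; those on single libraries were chosen after seeing the data.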

Additional observations from a re-analysis of the deposited data

Results flagged for a closer look

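In the duodenum the effect of feeding from ZT14 to ZT22 exceeded that from ZT0 to ZT12 by 0.417 (log2) for the helicase subunit Mcm2 (adjusted p = 0.0483) and by 0.533 for the nucleotide reductase subunit Rrm2 (adjusted p = 0.0449), by the test of the difference itself in edgeR. In the jejunum it did so by 0.514 for Mcm2 (adjusted p = 0.0132), by 0.561 for the cyclin gene Ccne1 (adjusted p = 0.00927) and by 0.464 for the cyclin gene Ccne2 (adjusted p = 0.0457). All 5 are replication genes, and without either replicate none of the 5 was called.

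Spleen and eWAT differed in the feeding effect for 38 of 38 members, each with a higher log2 fold change in the spleen, by the interaction term of the fit over both tissues. These tissues were chosen as the ones with the most rises and the most falls, and the spleen's mean level gave no call without replicate 2, with 11 members at an unadjusted p under 0.05.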

How the results depend on the processing

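For results over many members, 142 alternative values stayed within 1.5 times the reported count or, for levels, within 1 SD, and 38 did not; no result reversed. Leaving out 1 replicate number, which leaves 1 library per clock time, moved most of these. The lowest and highest counts were then 0 to 31 for members higher in the spleen, 0 to 13 in iWAT, 0 to 3 for members lower in the adrenal, 0 to 32 for the spleen from ZT14 to ZT22 and 0 to 32 for eWAT from ZT0 to ZT12. For the wave they were 0 to 13 in the stomach in ALF and 22 to 37 in TRF, 0 to 1 in the duodenum in ALF and 9 to 28 in TRF, 0 to 2 in the jejunum in ALF, 2 to 30 in the ileum in TRF, and 5 and 5 in the lung in ALF. For its difference they were 0 to 5 in the jejunum and 0 to 2 in eWAT. Over all tissues they were 70 to 72 for the mean level (133 with all libraries), 0 for the difference between windows (5) and 107 to 146 for the wave in TRF (210). Calls over all genes moved too: in the ileum in TRF they went from 6629 of 14580 genes to 560 of 14403 without replicate 1. The cause was not tested, beyond the smaller number of libraries.

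With a 12 h harmonic added, the wave was called for 7 members in the duodenum and 11 in the lung in ALF, and its difference for 11 in the jejunum and 31 in eWAT. That test takes the 24 h and 12 h waves together. The share of all genes called with it is not given, so these counts do not set the members apart from other genes. The difference in eWAT was called for 1 member without the TRF ZT10 library. In iWAT 8 members were higher without the libraries set apart. The difference between windows was called for 2 members with no filter on low counts and for 9 without ZT0 and ZT22. Without the 50 most abundant genes the median summed level was 3619.6 in the duodenum, 3326.5 in the jejunum and 1461.6 in the stomach. The cause was not tested.

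With a replicate block the difference in eWAT was called for 15 members in place of 9; the block gave 137 calls for the mean level, 5 for the difference between windows and 209 for the wave in TRF, and moved no other count by 1.5 times. Of 25 named fold changes, 8 did not pass with GC offsets, 16 without replicate 1 and 12 without replicate 2. At the counts of these libraries, 18 to 24 members passed the filter in muscle, pancreas, kidney and the brain nuclei, and no statement is made there on the others.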
